A study of Gossypium hirsutum with 18 samples.

Results

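Uninfested roots of NemX were set against uninfested roots of SJ2, the resistant and the susceptible Acala cotton (*Gossypium hirsutum*) of a study of root-knot nematode (RKN, *Meloidogyne incognita*) resistance. The comparison took the 3 libraries of NemX given water only (NemX_ctl) and the 3 libraries of SJ2 given water only (SJ2_ctl), of 18 libraries in all. Genes were included when their normalized value averaged at least 1 over the 18 libraries, which kept 46813 of the 54508 genes in the deposited table. The question of the comparison is which genes differ in basal expression between the lines when no nematode is present. NemX_ctl and SJ2_ctl plants were 23 days old at collection and had received water in place of inoculum. Further groups were used only to place these values: NemX_rkn and SJ2_rkn, the same lines given 5000 juveniles (J2) per plant at 12 days and collected at 23 days, and WMJJ_ctl and WMJJ_rkn, the moderately resistant Wild Mexico Jack Jones under both treatments. Each of these groups also had 3 libraries, labelled as biological replicates. Whole roots were sampled, so a lower value can come from fewer cells of a type or from less RNA per cell, and these cannot be told apart. NemX and SJ2 are whole cultivars that differ at many loci, so a difference between them belongs to no single resistance gene.

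Root-knot nematodes enter near the root tip as juveniles and settle in the vascular tissue, where they turn root cells into the enlarged feeding cells that underlie a gall. Plants meet such parasites with receptors at the cell surface and, inside the cell, with NBS-LRR proteins, of which the TIR class carries a Toll/interleukin-1 receptor domain and starts a defence response when an effector is sensed. Upland cotton is an allotetraploid, so that most genes exist as an A copy and a D copy, and the letter in a Gohir identifier gives the subgenome. Reads were pseudo-aligned to transcripts by the authors, and reads of near-identical copies can be split between them, so the value of a single copy is uncertain. The deposited table pairs no identifier with a gene name, and a RefSeq table of cotton matched 0 of the 54508 identifiers. Apart from a pair of TIR-NBS-LRR genes that the study names, genes are therefore given by identifier and chromosome, and neither their roles nor the root markers of the samples could be checked.

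In uninfested roots, 6310 of the 46813 tested genes (13.5%) differed between NemX and SJ2, which here means a log2 fold change beyond 1 in size with an adjusted p under 0.01. Expression was higher in NemX_ctl for 4386 genes (9.37% of those tested) and lower for 1924 genes (4.11%), so that 69.5% of the differing genes were higher. The test was limma on the log2 of the value plus 0.5, with Benjamini-Hochberg adjustment over all tested genes, and each fold change is NemX over SJ2 on that scale, which understates changes of low genes. P-values rest on the spread between libraries of the same group, estimated once per gene over all 6 groups of 3 and drawn towards a trend with level. This split depended on how libraries were scaled. With every library brought to the same total, 3306 genes were higher and 3841 lower, so that 46.3% of the calls were higher, and the median log2 fold change of all tested genes moved by -0.28, to -0.33 in place of -0.06. No called gene changed direction between these fits.

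The groups were separated well beyond their own spread. Between a NemX_ctl and an SJ2_ctl library the root mean square difference of log2 values over the tested genes was 0.912 to 1.04 (9 pairs). It was 0.5 to 0.589 within NemX_ctl and 0.447 to 0.549 within SJ2_ctl (3 pairs each). The 3 NemX_ctl values all lay above the 3 SJ2_ctl values in 19.5% of tested genes and all lay below them in 18.4%. Among the called genes these shares were 99.7% of the higher and 99.5% of the lower. Calls rested on these same libraries, which made such shares likely. Higher genes had a median log2 fold change of 1.75, with 1626 of the 4386 above 2 and 454 above 3. Measured differences were smaller among lower genes, whose median size was 1.5 on the log2 scale, with 388 of the 1924 beyond 2 and 75 beyond 3. Lower genes had medians of 3.22 in NemX_ctl and 10.6 in SJ2_ctl, against 30 and 8.11 for higher genes. The 0.5 added to each value shrinks fold changes more at low values. Equal library totals moved the median log2 fold change by -0.28, so this contrast in size depends on level and scaling.

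Several features of the libraries moved with the comparison. Column totals were 1048424 to 1096547 in NemX_ctl, against 852215 to 901899 in SJ2_ctl, and the other 15 libraries of the series lay at 957278 or above. Only 992 to 1101 genes exceeded a value of 100 in SJ2_ctl libraries, whereas 1682 to 1818 did in NemX_ctl and at least 1367 in each of the other libraries. The median gene was nearly level, at 5.97 to 6.10 in NemX_ctl and 6.25 to 6.33 in SJ2_ctl. The study also states that part of its libraries were prepared with another kit, without saying which, and whether this kit moved with the groups was not tested. Among the infested libraries, the third SJ2_rkn library stood apart. In 13 genes listed at 0 in the other 5 SJ2 libraries and at 1 or more in every NemX library, it was above 0 in all 13, at 11.3% to 45.8% (median 19.7%) of the NemX_rkn mean. When that library was set aside, the same count in each remaining SJ2 library was 1 to 3 of 14 to 16 genes. Another 44 genes were at 0 in the other 5 SJ2 and all NemX libraries and at 1 or more in every WMJJ library. The third SJ2_rkn library was above 0 in 8 of these. It also had the most reads of the SJ2_rkn libraries, and whether depth played a part was not tested. Its part in the results on infested roots was not tested beyond giving them with and without it. In the main fit it enters the uninfested comparison only through the variance shared by all groups and the mean over the 18 libraries. That mean decided which genes were tested and at which level they are placed.

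The share of genes called higher in NemX_ctl rose with expression level and was largest in strongly expressed genes. By number, more of the higher genes lay at middle levels, with 1114 at a mean from 20 up to 50 and 522 at 100 or more. Among the 1416 genes that averaged 100 or more across libraries, 36.9% were higher in NemX_ctl and 2.12% lower, and their median log2 fold change was 0.51. In genes with a mean from 50 up to 100 the shares were 23.5% and 1.69%. Both directions were nearly balanced in weakly expressed genes. Below a mean of 10, 5.02% of genes were higher and 5.21% lower, and the medians of the 3 lowest bins lay between -0.19 and -0.12. Genes of higher level also had smaller standard errors (median 0.18 from a mean of 100, against 0.40 from 1 up to 2). The same bins in infested roots had medians between -0.03 and 0.11.

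**Figure D1:**
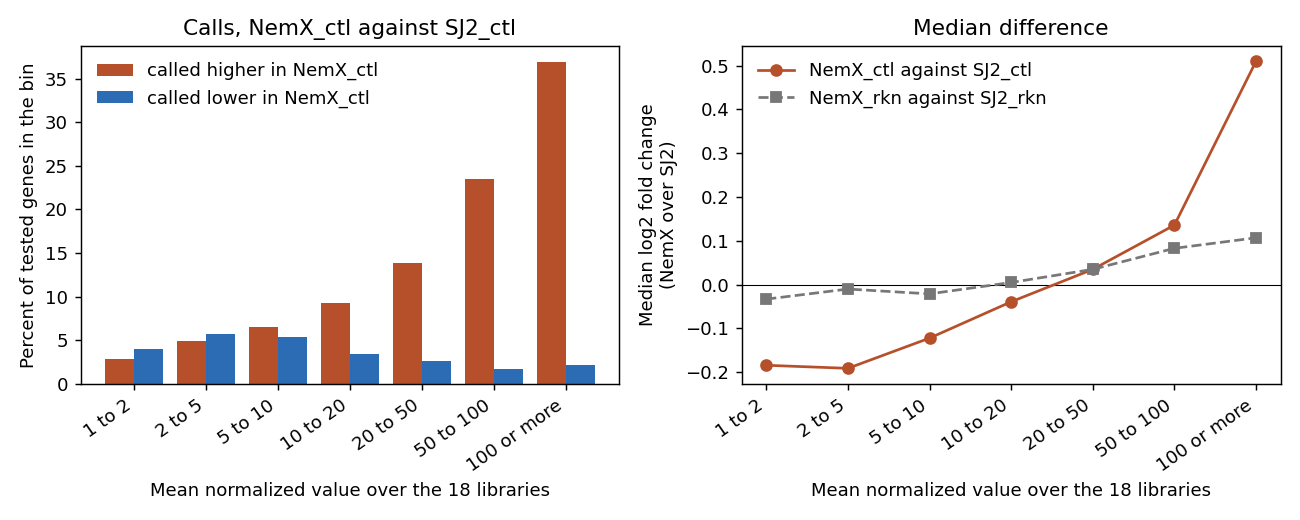
Percent of tested genes whose expression was called higher or lower in NemX_ctl relative to SJ2_ctl (left) and median log2 fold change of NemX over SJ2 in uninfested and infested roots (right), by mean normalized value over the 18 libraries. The share of higher calls climbs to 36.9% in the top bin while the share of lower calls stays under 6%, and the median climbs to 0.51 in uninfested roots but only to 0.11 in infested roots.

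This dependence on level changed in size, and in part in sign, with the scaling. With equal library totals, 30.5% of genes averaging 100 or more were still called higher in NemX_ctl and 3.81% lower, with a median log2 fold change of 0.21, whereas below a mean of 10 lower calls prevailed (3.68% higher, 10.4% lower). Quantile normalization, which gives every library the same distribution of values, left 25.3% of the strongly expressed genes higher and 7.84% lower, and their median became -0.04. Thus more of the strongly expressed genes were higher than lower under each scaling tried, but whether the typical strongly expressed gene was higher in NemX_ctl depended on the scaling.

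The pair of TIR-NBS-LRR genes that the study names were both higher in uninfested NemX roots. The study began from sequence matches on A11 and D11 to resistance sequences of its mapped region. It kept those higher in NemX than in SJ2 and dropped those with enhanced expression in WMJJ. Both of these steps used these same libraries, so the direction of the pair here is not independent evidence. Gohir.A11G297600, on chromosome A11, had values of 126, 115 and 93.4 in NemX_ctl, against 41.2, 55.4 and 40.6 in SJ2_ctl. The lowest NemX_ctl library thus lay well above the highest SJ2_ctl library, and the log2 fold change was 1.28 (SE 0.18, limma adjusted p = 9.39e-06). It stayed significant but fell short of the fold threshold with equal library totals (0.98) and with quantile normalization (0.90). Gohir.D11G312800, on D11, had 25.4, 33.6 and 27.4 in NemX_ctl, against 6.81, 7.16 and 7.52 in SJ2_ctl. This was the larger difference of the pair, a log2 fold change of 1.93 (SE 0.19, limma adjusted p = 1.17e-07).

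The pair differed in how WMJJ compared, though WMJJ expression was part of the study's choice. For Gohir.A11G297600 the WMJJ_ctl over SJ2_ctl log2 fold change was 0.97 (limma adjusted p = 0.000281), just under the fold threshold used here. For Gohir.A11G297600, WMJJ_ctl libraries at 92.2, 100.1 and 76.0 were close to NemX_ctl, with a NemX_ctl over WMJJ_ctl log2 fold change of 0.32 (SE 0.18, limma adjusted p = 0.263, a 3 against 3 comparison). For Gohir.D11G312800, WMJJ_ctl was low, at 5.29, 5.72 and 3.99, and NemX_ctl exceeded it by a log2 fold change of 2.42. In infested roots both genes were again higher in NemX_rkn than in SJ2_rkn, by 1.07 (limma adjusted p = 0.000365) for the A11 gene, or 0.99 with quantile normalization, and by 1.17 (adjusted p = 0.000345) for the D11 gene. The difference between the lines was not shown to depend on treatment for either gene, with interaction log2 values of 0.21 (SE 0.25, adjusted p = 0.689) and 0.75 (SE 0.27, adjusted p = 0.0763).

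The neighbours of both TIR-NBS-LRR genes were taken as the 10 tested genes on each side by identifier. Around Gohir.A11G297600, 4 of 20 were called higher and 2 lower in NemX_ctl, where 9.37% and 4.11% of all tested genes were, with log2 fold changes from -2.02 to 4.19. The largest of these was in Gohir.A11G296900, which averaged 25.8 in NemX_ctl and 0.984 in SJ2_ctl, and the lowest in Gohir.A11G297900, which averaged 1.25 in NemX_ctl and 6.51 in SJ2_ctl. Around Gohir.D11G312800 none of the 20 was called in either direction, and log2 fold changes ran from -1.18 to 1.03. The difference between these neighbourhoods was not tested, and counts over 20 genes are a description only.

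The largest single difference was in Gohir.A05G283000 on A05, which reached 643, 958 and 1162 in NemX_ctl, against 2.06, 0 and 0 in SJ2_ctl. Its log2 fold change of 10.0 (SE 0.91, limma adjusted p = 3.20e-08) rests on SJ2_ctl values near 0 and so on the pseudocount. Its infested log2 fold change was 6.88, or 8.59 without the third SJ2_rkn library. It stood at 2171, 992 and 1818 in NemX_rkn, against 2.61, 4.86 and 142 in SJ2_rkn, where 142 is the library that stood apart. WMJJ_ctl held 394 to 495, so SJ2 was the line that stood near 0. Gohir.D10G206900 on D10 followed, with 184, 173 and 207 in NemX_ctl and 0.229, 1.46 and 0.921 in SJ2_ctl, a log2 fold change of 7.21 (SE 0.61, limma adjusted p = 1.05e-08). It too was expressed in WMJJ_ctl, at 114 to 135, and in infested roots its log2 fold change was 5.96, or 7.22 without the third SJ2_rkn library.

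Among genes lower in NemX_ctl, the largest difference was in Gohir.D10G206150, which had 0, 0.991 and 1.92 in NemX_ctl, against 194, 233 and 176 in SJ2_ctl. The log2 fold change was -7.36 (SE 0.45, limma adjusted p = 1.35e-10), and it was -7.34 in infested roots, where NemX_rkn was again at or near 0 and SJ2_rkn at 62.8 to 98.2. This gene and Gohir.D10G206900, the second largest increase, lie 7 tested genes apart on D10 in opposite directions. Of the 6 tested genes between them 1 was called higher, Gohir.D10G206500, and none lower, a stretch picked out after its values were seen. Gohir.D12G028500 on D12 was listed at 0 in all 3 NemX_ctl libraries and at 27.3, 27.6 and 19.6 in SJ2_ctl (limma adjusted p = 1.54e-11).

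**Figure D2:**
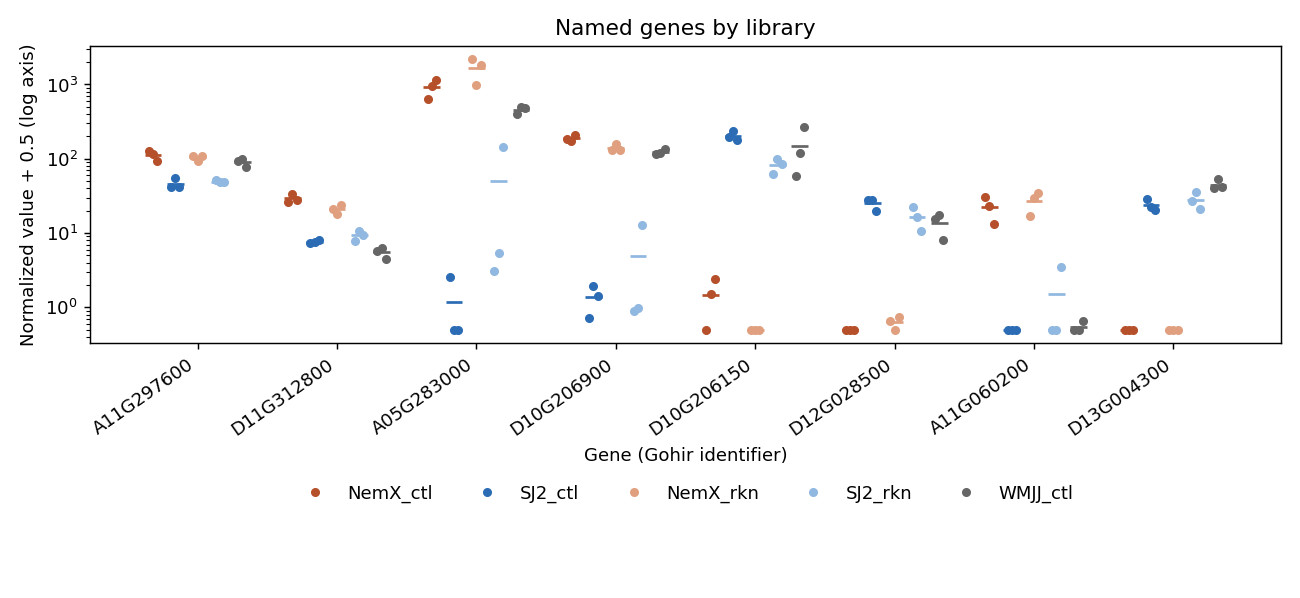
Normalized value plus 0.5 (log axis) of the 8 named genes in each NemX_ctl, SJ2_ctl, NemX_rkn, SJ2_rkn and WMJJ_ctl library, with a bar at the group mean. NemX_ctl and SJ2_ctl points do not overlap in any of the 8 genes. The rules that chose the genes required this, except for the TIR-NBS-LRR pair, which the study chose partly on these libraries. The third SJ2_rkn library lies above the other SJ2_rkn libraries in Gohir.A05G283000 (142), Gohir.D10G206900 (12.3) and Gohir.A11G060200 (2.98).

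Some genes were listed at 0 throughout the uninfested libraries of 1 line. There were 42 genes at 0 in all SJ2_ctl libraries and at 1 or more in each NemX_ctl library, with NemX_ctl values up to 29.9. In the other direction 44 genes were at 0 in all NemX_ctl libraries and at 1 or more in each SJ2_ctl library, with values up to 31.5. All those that passed the filter on the mean, 30 and 29 genes, were called, which the pattern itself made likely. The table gives no reads behind a 0, so a fold change of such a gene is set by the pseudocount, and these genes are described by their values. The gene at 0 in SJ2_ctl with the highest values was Gohir.A11G060200 on A11, at 29.9, 22.9 and 12.9 in NemX_ctl, and at most 0.152 in WMJJ_ctl. Its counterpart was Gohir.D13G004300 on D13, at 0 in all NemX libraries, uninfested and infested, at 28.3, 21.8 and 20.2 in SJ2_ctl, and at 39.5 to 52.4 in WMJJ_ctl.

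Both sets were followed into infested roots. Of the 44 genes at 0 in NemX_ctl, 27 stayed at 0 in all 3 NemX_rkn libraries, and 26 of the 29 tested were called lower in NemX_rkn than in SJ2_rkn, as were 1.81% of all tested genes. Of the 42 genes at 0 in SJ2_ctl, 1 stayed at 0 in all 3 SJ2_rkn libraries, but 19 did when the third SJ2_rkn library was left out, and 15 of the 30 tested were called higher in NemX_rkn than in SJ2_rkn, as were 2.88% of all tested genes. The filter on the mean took in the infested libraries, so genes high in infested roots of the other line were more likely to be tested. The called counts are therefore not evenly matched with the shares of all tested genes. The difference between the sets was not tested. Both called counts were the same without the third SJ2_rkn library. That library was above 0 in 40 of the 42 genes, and the first and second SJ2_rkn libraries in 20 each. In WMJJ_ctl, 15 of the 42 and 21 of the 44 genes were at 1 or more in every library.

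Called genes were spread over all 26 chromosomes. The share of tested genes higher in NemX_ctl was 9.42% in the A subgenome and 9.35% in the D subgenome, and the lower shares were 4.25% and 3.99%. By chromosome the higher share ran from 7.07% on D13 to 12.1% on D05 (331 of 2731 genes). A05, the homeologous partner of D05, had the second highest share at 11.9% (358 of 3002 genes), and the next was D02 at 9.80%. With equal library totals the shares of A05 and D05 were 9.23% and 8.57%, against 7.06% of all genes, and with quantile normalization 11.2% and 11.3%, against 8.78%. The share of lower genes ran from 3.06% on D07 to 4.94% on A10. Over the 13 homeologous pairs the higher shares had a Pearson r of 0.72 and a Spearman rho of 0.29, given as a description. Over the 12 pairs without A05 and D05 they were 0.34 and 0.09, so the relation rested on that pair. In infested roots the shares called higher in NemX_rkn were 3.40% on A05 and 3.33% on D05, against 2.88% of all tested genes. The highest share there was on D11, at 3.91%.

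**Figure D3:**
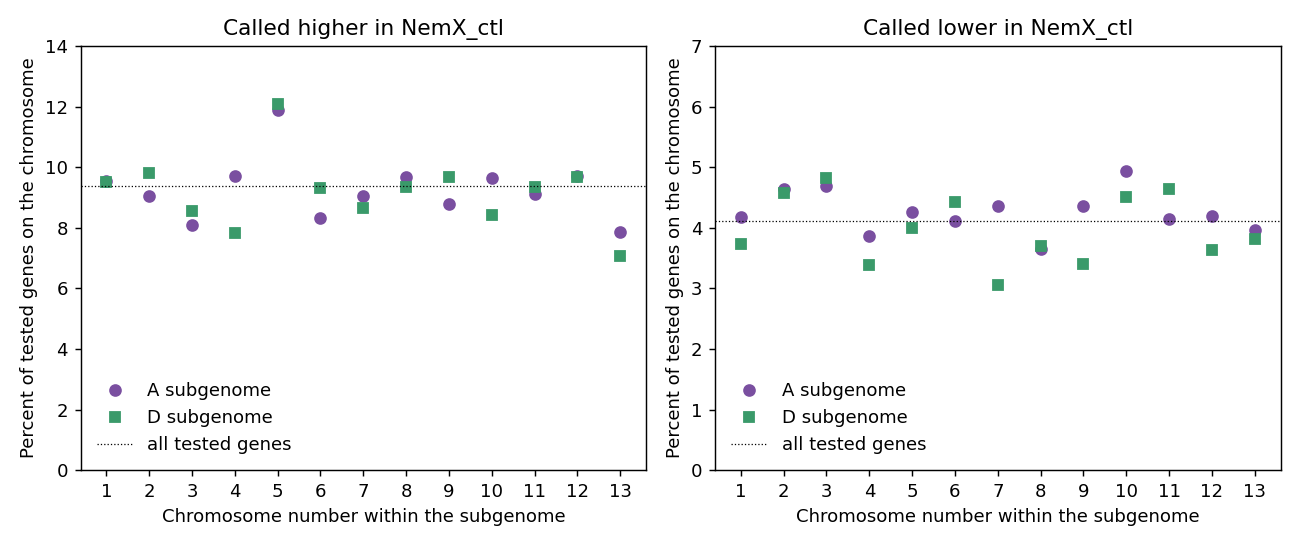
Percent of tested genes on each chromosome called higher (left) or lower (right) in NemX_ctl than in SJ2_ctl, with circles for the A subgenome, squares for the D subgenome and a dotted line at the share of all tested genes (9.37% and 4.11%). A05 and D05 stand above all others on the left, at 11.9% and 12.1%, and D07 is lowest on the right, at 3.06%.

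Genes of the same direction also lay next to each other. Position here is the order of the numbers in the identifiers, which was not checked against an annotation. The next tested gene along the chromosome was also higher for 16.5% of the higher genes, against 9.37% of all tested genes, and was lower for 2.94% of them, against 4.11%. For lower genes the next gene was also lower in 8.22% and higher in 6.82%. In all, 29.4% of the higher genes and 15.4% of the lower genes were in runs of at least 2. In windows of 100 tested genes the count of higher genes had a median of 9 and ran from 0 to 27, and the top window lay on D05, from Gohir.D05G206601 to Gohir.D05G219300. Lower genes numbered 0 to 13 per window, with a median of 4.

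The longest run of higher genes held 6 neighbours on D08, from Gohir.D08G032600 to Gohir.D08G033100. Their SJ2_ctl values were low and their NemX_ctl values tightly grouped. Gohir.D08G033100 had 209, 218 and 206 in NemX_ctl, against 3.14, 7.51 and 3.07 in SJ2_ctl (log2 fold change 5.49, SE 0.22, limma adjusted p = 8.44e-13). Gohir.D08G032800 had 150.0, 166 and 157 in NemX_ctl, against 2.98, 6.43 and 4.87 in SJ2_ctl (4.96, SE 0.19). Over the run the basal log2 fold changes were 1.47 for Gohir.D08G032600 and 3.72 to 5.6 for the other 5. No NemX_ctl library overlapped an SJ2_ctl library in any of the 6 genes, as in 99.7% of all genes called higher.

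In infested roots the same 6 genes differed much less between the lines. Gohir.D08G033100 was at 121, 135 and 131 in NemX_rkn, against 49.3, 50.3 and 75.8 in SJ2_rkn, with a log2 fold change of 1.16 (limma adjusted p = 0.00143). Values of all 6 genes were higher in SJ2_rkn than in SJ2_ctl, and those of 5 were lower in NemX_rkn than in NemX_ctl. Gohir.D08G032600 was instead higher in infested roots of both lines (43.9, 51.3 and 45.8 in NemX_rkn, and 63.3, 64.8 and 50.3 in SJ2_rkn). The infested log2 fold changes of the run were -0.33 to 1.31, of which 4 of 6 were called. Of these, Gohir.D08G032800, at 1.03, fell under the fold threshold without the first SJ2_rkn library (0.96) or without the second or the third NemX_rkn library (0.97 and 1.00), and with equal library totals (0.96) and quantile normalization (0.95). Gohir.D08G033100 kept its fold but no longer met the adjusted p threshold without the first or the second SJ2_rkn library (adjusted p = 0.0129 and 0.0117). The interaction of line and treatment had an adjusted p of 1.57e-05 or lower in all 6. WMJJ_ctl was on the side of NemX_ctl in 5 of the 6, for instance 109 to 133 for Gohir.D08G033100, and near SJ2_ctl in Gohir.D08G032600 (13.9 to 15.4).

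The longest run of lower genes held 7 neighbours on D13, from Gohir.D13G004300 to Gohir.D13G005500, of which 4 were at 0 in all NemX_ctl libraries. Gohir.D13G004800 was at 0 in every NemX library of both treatments, against 18.6, 15.0 and 17.9 in SJ2_ctl and 14, 19.4 and 13.8 in SJ2_rkn. Gohir.D13G004700 and Gohir.D13G005200 were at 0 in NemX_ctl and at 3.84 to 5.36 and 5.10 to 8.39 in SJ2_ctl. Gohir.D13G005100 was the exception in level, at 3.09, 4.05 and 4.99 in NemX_ctl, against 14.9, 19.1 and 23.7 in SJ2_ctl. Its log2 fold change of -2.12 (limma adjusted p = 0.0061) was not called when any of the 6 libraries was left out (adjusted p = 0.0105 to 0.0295), so the run is split without any 1 of them. With all libraries kept, its call was also lost with 0.1 added to each value (limma adjusted p = 0.0241) and without the trend with level (0.0162).

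Genes beside the D13 run were mixed. Before the run, the 6 tested genes from Gohir.D13G003600 to Gohir.D13G004100 were not called, with 13.1, 11.4 and 12.1 in NemX_ctl and 12.5, 14.2 and 11.5 in SJ2_ctl for Gohir.D13G003600. Gohir.D13G004200, next to the run, was at 0 in all 6 NemX libraries and not called in uninfested roots, where SJ2_ctl was also near 0 (0.203, 0.183 and 0), but was called lower in NemX_rkn, with SJ2_rkn at 4.53, 2.55 and 3.08 (limma adjusted p = 2.94e-05). After the run, Gohir.D13G005600 was not called, at 3.46, 4.74 and 3.43 in NemX_ctl and 4.57, 3.10 and 2.15 in SJ2_ctl. The next tested gene, Gohir.D13G005700, was called lower again, at 1.60, 0 and 0.343 in NemX_ctl and 3.70, 3.78 and 3.77 in SJ2_ctl (log2 fold change -2.15, limma adjusted p = 0.00283), and also in infested roots (-2.30, adjusted p = 0.00406). Lower calls thus extended past the run, in infested roots only for the gene before it. Of the 7 genes, 6 were also called lower in NemX_rkn than in SJ2_rkn, with Gohir.D13G005500 (adjusted p = 0.0522) not called. Gohir.D13G005400 lost this call without the first or the second NemX_rkn or the first or the third SJ2_rkn library (adjusted p = 0.026 to 0.051), and Gohir.D13G005100 without the first SJ2_rkn library (0.0103). In a limma fit of the compared libraries alone both lost it (adjusted p = 0.0379 and 0.0427). Gohir.D13G005400 also lost it with 1 added to each value (0.0113). WMJJ_ctl expressed all 7, at 39.5 to 52.4 for Gohir.D13G004300 and 10.5 to 15.5 for Gohir.D13G004800. Both runs were picked by length after calling, and no reads or sequence of the region were analysed here.

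**Figure D4:**
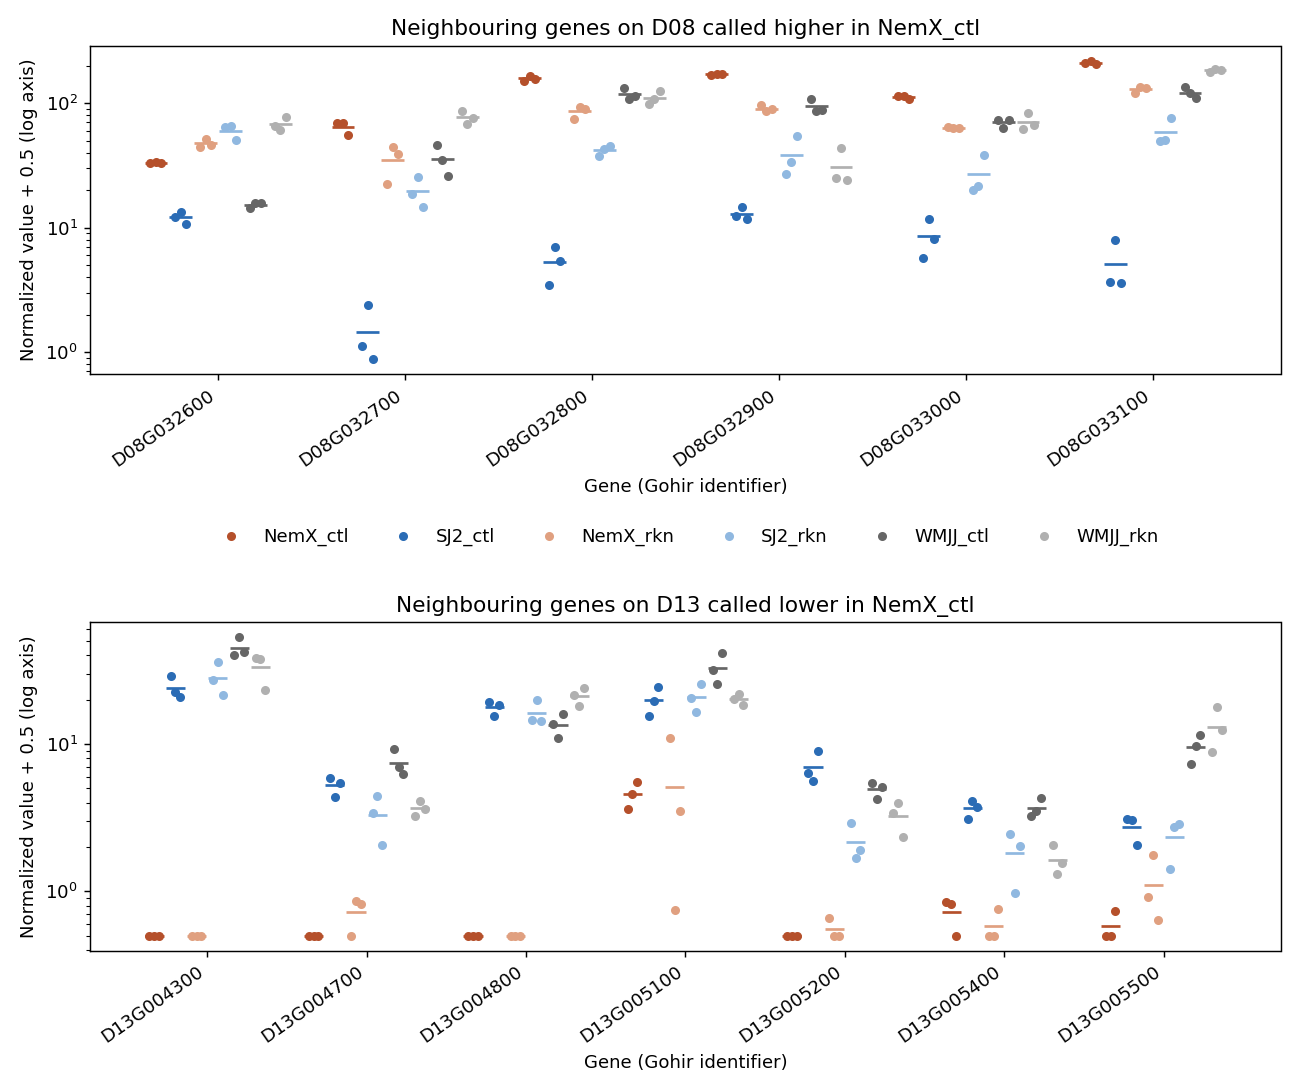
Normalized value plus 0.5 (log axis) in each library for the 6 neighbouring genes on D08 (top) and the 7 on D13 (bottom), with bars at group means. On D08 the NemX_ctl and SJ2_ctl points lie far apart and the infested groups lie between or above them, as in Gohir.D08G033100 with 206 to 218 in NemX_ctl, 3.07 to 7.51 in SJ2_ctl and 49.3 to 75.8 in SJ2_rkn. On D13 the NemX libraries sit low under both treatments, at 0 throughout in Gohir.D13G004300 and Gohir.D13G004800.

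Infested roots of the 2 lines share no library with the uninfested ones, and they were used to see how far the basal difference recurred. Both comparisons used the same spread per gene in the main fit, so their calls are not fully independent. Between NemX_rkn and SJ2_rkn 4.69% of tested genes were called, of which 1346 (2.88% of those tested) were higher and 849 (1.81%) lower. Of the 4386 genes higher in NemX_ctl, 814 (18.6%) were called higher again, which is 60.5% of the infested list, and 41 were called lower. Of the 1924 genes lower in NemX_ctl, 283 (14.7%) were called lower again, which is 33.3% of the infested list, and 25 were called higher. The sign was the same in 79.0% of the higher and 73.4% of the lower genes, at median infested log2 fold changes of 0.52 and -0.39. Without the third SJ2_rkn library the infested calls were 1761 and 834, and 1023 and 285 basal calls recurred. Leaving out the first SJ2_rkn library gave 886 and 480 infested calls, and leaving out the second gave 859 and 531, with 533 recurring higher genes without the second. In a fit of the compared libraries alone, where the spread is not shared, 618 higher and 175 lower genes recurred.

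Larger basal differences recurred more often. Of higher genes with a basal log2 fold change of 1 to 2, 12.9% were called higher in infested roots, of those from 3 to 5, 35%, and of the 20 above 5, 11 were. Lower genes followed the same order more steeply, with 9.44% of those from 1 to 2 in size, 57.4% of those from 3 to 5 and all 7 of those beyond 5, though sizes of genes listed at 0 rest on the pseudocount. Across the tested genes the 2 sets of log2 fold changes had a Pearson r of 0.39 and a Spearman rho of 0.32 (0.38 and 0.30 without the third SJ2_rkn library), as a description over 46813 genes that are not independent replicates.

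**Figure D5:**
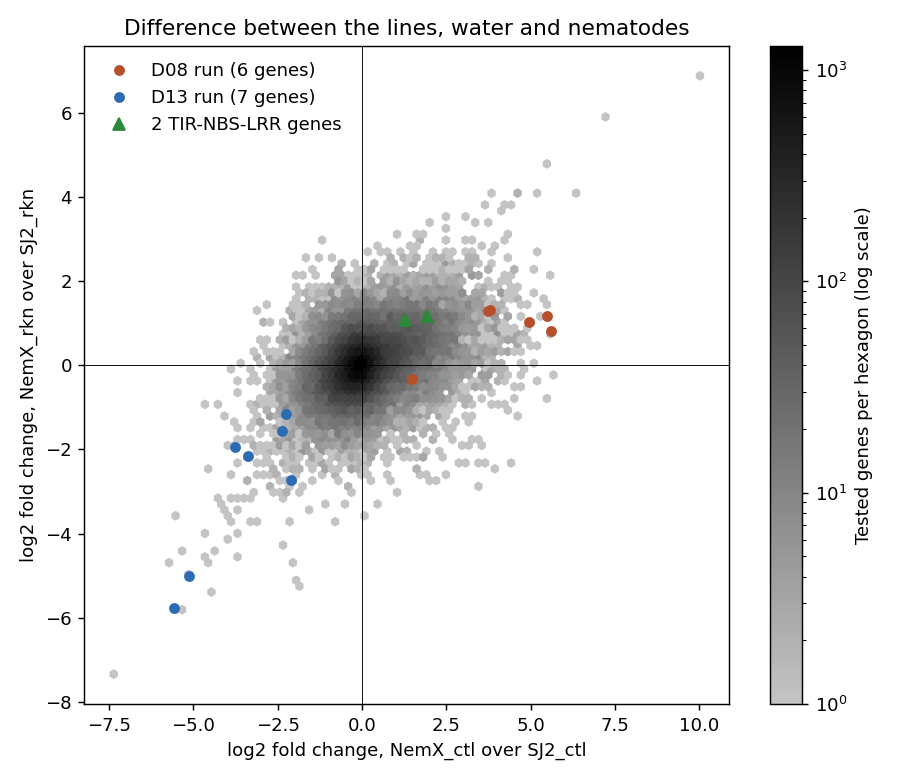
Log2 fold change of NemX over SJ2 in uninfested roots (horizontal) and infested roots (vertical) for the 46813 tested genes, shaded by number of genes per hexagon, with the D08 run, the D13 run and the TIR-NBS-LRR genes marked. The D08 genes reach 5.6 on the horizontal axis but at most 1.31 on the vertical one, and the positions of D13 genes listed at 0 in NemX are set by the pseudocount of 0.5.

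The genes called in uninfested roots were also followed through the other groups as medians of group means. These genes were chosen on NemX_ctl and SJ2_ctl, so the distance between those groups is fixed by the choice. The choice also favours those groups as the extremes of each list, with the other groups between them. The 4386 higher genes had a median of 30 in NemX_ctl and 8.11 in SJ2_ctl, with 24.6 in NemX_rkn, 17.2 in SJ2_rkn, 20.4 in WMJJ_ctl and 18.6 in WMJJ_rkn. By library, SJ2_ctl stood at 7.56 to 8.73, below all 15 others, whose lowest was 15.4 in the second SJ2_rkn library. The 1924 lower genes had 3.22 in NemX_ctl and 10.6 in SJ2_ctl, with 4 in NemX_rkn, 5.65 in SJ2_rkn, 4.65 in WMJJ_ctl and 4.75 in WMJJ_rkn. In the lower list the 4 groups not used for the choice lay between 4 and 5.65, and in the higher list between 17.2 and 24.6. The 40503 genes not called had medians of 7.57 to 8.26 in the 6 groups, highest in SJ2_ctl.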

How the data were processed

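The authors checked the paired-end reads of 18 root libraries with FastQC 0.11.9, trimmed with Trimmomatic 0.39, pseudo-aligned with kallisto 0.46.1 to TM-1 UTx v2.1 transcripts and summed per gene with tximport for edgeR 3.13 and DESeq2, versions as in the submitters' processing notes. The deposited table holds signal values normalized by the authors, close to CPM apart from a scaling that differs between libraries. That normalization is not given in the sources used here. Values are not whole multiples of a read, so reads were not recovered and the reads behind a value are unknown. The study lists reads per library, which were not used here beyond their order: the third library had the most reads in NemX_ctl, SJ2_ctl and SJ2_rkn.

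Here log2(value + 0.5) of genes with a mean of at least 1 was fitted in limma 3.58.1 (R 4.3.3) with 6 group terms and an intensity trend, checked on simulated data. Calls needed a Benjamini-Hochberg adjusted p under 0.01 and a log2 fold change beyond 1 in size. The interaction was the difference between the basal and infested fold changes. Same-numbered NemX_ctl and SJ2_ctl libraries deviated together (r = 0.16, 0.11 and 0.27 across genes), so a term for the replicate number was tried. In infested roots they did not (r = -0.19, 0.11 and -0.13).

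Named genes were the pair of TIR-NBS-LRR genes, the 2 largest called increases and decreases without overlap between libraries, the longest run of neighbours in each direction, and in each direction the gene at 0 in 1 line with the highest minimum in the other. Members and rules were chosen with earlier results of these data known. Gene lists printed only in pictures were not used, the labels and the methods differ in the number of plants per group, and whether the 3 libraries of a group are separate plants or pools is not stated beyond biological replicate.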

Additional observations from a re-analysis of the deposited data

Results flagged for a closer look

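The difference between NemX and SJ2 itself differed between water and nematodes in 7 of the named genes, by the interaction term in limma (adjusted p below 0.01, absolute log2 value above 1). The 6 genes of the D08 run had interaction log2 values, basal minus infested, of 1.80 for Gohir.D08G032600, 4.78 for Gohir.D08G032700, 3.94 for Gohir.D08G032800, 2.42 for Gohir.D08G032900, 2.48 for Gohir.D08G033000 and 4.33 for Gohir.D08G033100, all larger in uninfested roots. Gohir.D13G005200 had -1.83 (SE 0.44, adjusted p = 0.00674), with SJ2_rkn at 1.18 to 2.42, against 5.10 to 8.39 in SJ2_ctl, and NemX at or near 0 under both treatments, where the pseudocount limits the fold change. With 3 libraries per group, Dixon's check for an outlying library was not run.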

How the results depend on the processing

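Under 12 alternatives the counts of calls mostly stayed within 1.5 times their values. Exceptions were 1091 lower basal genes with a mean of at least 5, where fewer genes were tested, 3841 lower basal genes with equal library totals, where SJ2_ctl values are raised, 1240 recurring higher genes with no fold threshold, and 175 recurring lower genes in a fit of the compared libraries alone. Leaving out 1 library at a time gave 3937 to 4298 higher and 1414 to 1883 lower basal genes, 859 to 1761 higher and 480 to 834 lower infested genes, and 533 to 1023 and 190 to 295 recurring genes; causes were not tested. With a replicate block, 4507 basal genes were higher and 2025 lower (4373 and 1902 of them called without it), no count of calls moved by over 1.5 times and no named gene lost its call. No basal call turned direction under any alternative that was run. Of 356 basal and 356 infested values of the named genes, 346 and 340 kept their side of the threshold and none changed sign. The table holds no reads per value, so no upper limit is given for values listed at 0.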
